A study of Mus musculus with 27 samples.

Results

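Haematopoietic stem and progenitor cells (HSPCs) labelled E12.5 PL were compared with HSPCs labelled E12.5 FL, both from C57BL/6 embryos at stage E12.5, in days of gestation. The comparison used 6 libraries, 3 of each source, of the 27 bulk RNA-seq libraries in the series, which cover 9 groups of HSPCs from fetal and postnatal sources. FL is the field's usual abbreviation of fetal liver. The labels leave PL unexplained, and they do not state sorting markers, the sex of the embryos or whether embryos were pooled. No treatment, allele or transgene is labelled for either group. Total RNA came from TriPure extraction, and an Illumina TruSeq kit was used for sequencing libraries. The values are FPKM, fragment counts divided by transcript length and by library size, so levels are per length. A gene entered the comparison where its FPKM was at least 1 in at least 3 of the 6 libraries, which held for 12583 of the 24418 entries of the table. Differences are given as PL minus FL on the log2(FPKM + 1) scale, so a positive value means a higher level in PL, and changes of low genes are understated. A gene is called where the adjusted p of a limma fit over all 12583 genes was under 0.05. Nothing in the labels says that the 3 libraries of a group came from separate animals or litters, so each p-value reflects the spread among these libraries and may be technical.

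At midgestation the mouse fetal liver is the main site where HSPCs expand, and the placenta is another site known to hold them. Placental tissue is built of trophoblast cells of embryonic origin (giant cells, spongiotrophoblast and the labyrinth), fetal vessels and stroma, and maternal decidua. The parietal endoderm of the yolk sac, which secretes the thick basement membrane named after Reichert, lies against its trophoblast. HSPCs are commonly known by the receptor gene Kit, the sialomucin gene Cd34 and the pan-leukocyte phosphatase gene Ptprc (CD45), and blood formation rests on transcription factors such as those encoded by Runx1, Tal1, Gata2 and Myb.

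FPKM summed to between 651063 and 763033 in the PL libraries and between 542363 and 589984 in the FL libraries. The total count is unknown. Steps between low values put the depth of a PL library at 0.85 to 0.95, and that of an FL library at 1.05 to 1.18, of the median of the 6. Across the genes tested, which are not independent replicates, libraries correlated at r = 0.977 to 0.984 within PL, 0.993 to 0.995 within FL and 0.698 to 0.753 between the groups. The median SD of log2(FPKM + 1) between libraries was 0.17 in PL and 0.08 in FL. Xist, the RNA of the inactive X chromosome, stood at 24.7, 27.3 and 12.3 FPKM in the PL libraries and 26.1, 27 and 19.9 in the FL libraries, and the Y-linked gene Ddx3y at 18.9, 17.8 and 21.4 FPKM in the PL libraries and 19.5, 12.1 and 19.1 in the FL libraries. Both genes thus had values in every library of both groups.

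Most genes differed between the sources. Of the 12583 genes, 5207 were called higher in PL (41.4% of those tested) and 4079 higher in FL (32.4%). By at least 2-fold, 2990 genes (23.8%) were higher in PL and 1237 (9.83%) in FL, and for 78.2% of the genes tested the PL values lay wholly above or wholly below the FL values. The large differences lay on the PL side. By at least 8-fold, 790 genes were higher in PL and 36 in FL (71 in FL without PL 1, 21 without PL 2 and 89 with equal FPKM sums), and by at least 32-fold 195 in PL and 0 in FL. With a pseudocount of 0.1 in place of 1, the counts were 1548 and 152 by at least 8-fold and 729 and 0 by at least 32-fold. The split depends on scaling, because the FPKM sums differ. With the FPKM of every library scaled to the same sum, the median of all genes moved by -0.28 and the calls became 4017 higher in PL and 5445 in FL, 2527 and 2042 of them by at least 2-fold. A median-of-ratios scaling gave 4879 and 4474. The median log2 difference of all genes tested was 0.09, the value against which the list medians below can be read, as the shares of 41.4% and 32.4% are for the counts.

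**Figure D1:**
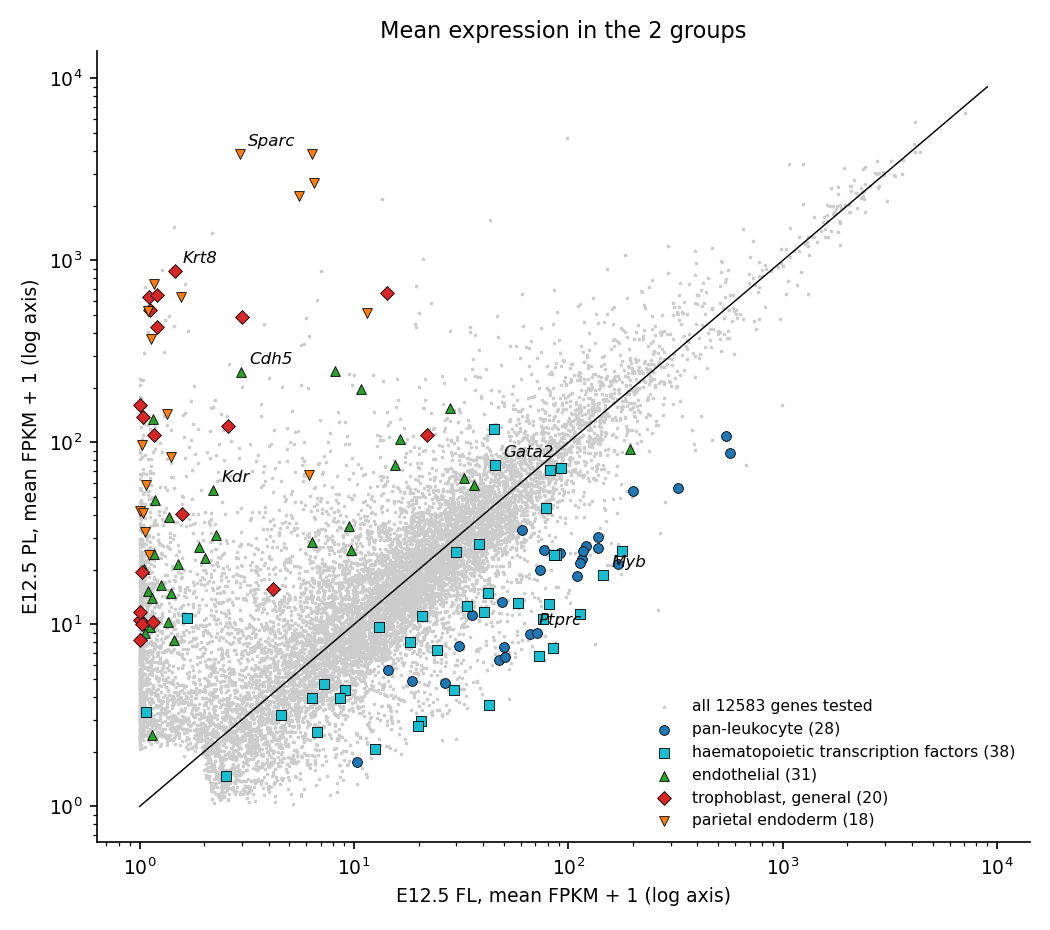
Mean FPKM + 1 of each gene in the FL libraries (x axis, log) and the PL libraries (y axis, log), with the line of equal level and 5 gene lists coloured. Parietal endoderm and trophoblast genes and all endothelial genes but Egfl7 lie above the line, up to Sparc at 3843 FPKM in PL and 1.93 in FL, and the 28 pan-leukocyte genes lie below it.

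Genes of matrix, epithelium and placenta led the PL side. Sparc, a matrix glycoprotein (chr11:55394159-55420080, GRCm38 from here on), stood at 2253, 5069.6 and 4207 FPKM in the PL libraries and 2.89, 1.5 and 1.4 in the FL libraries (log2 difference 10.31 ± 0.3 (SE), limma adjusted p = 3.41e-08). Every PL library was far above every FL library, and PL 1 held less than PL 2 or PL 3. Krt8, a keratin of simple epithelia (chr15:101996711-102004342), was at 789, 867 and 959 FPKM in the PL libraries and 0.382, 0.583 and 0.405 in the FL libraries (log2 difference 9.23 ± 0.1 (SE), limma adjusted p = 1.41e-09), with the PL libraries close to each other. Tpbpa, a spongiotrophoblast gene (chr13:60938492-60941936), was at 614, 501 and 870.0 FPKM in the PL libraries and 0.502, 0 and 0.0663 in the FL libraries (log2 difference 9.11 ± 0.22 (SE), limma adjusted p = 1.38e-08). The 15 genes with the largest differences toward PL also held Sct (10.01), Cyr61 (9.37), Hspb1 (9.33), Pga5 (9.27), Lamb1 (9.25), Gkn2 (9.19), Rhox6 (9.16), Col4a1 (9.14), Rhox9 (9.09), Ctgf (8.99), Col1a1 (8.97) and Krt19 (8.89). Lamb1, Col4a1 and Col1a1 encode a laminin and collagen chains, Cyr61 and Ctgf matrix-associated signalling proteins, Sct the hormone secretin, Hspb1 a small heat shock protein, and Rhox6 and Rhox9 homeobox proteins of the X-linked Rhox cluster, which resemble each other in sequence. No FL library exceeded 5.75 FPKM for any of these 15 genes, and no PL library was below 287.

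Genes of immune signalling and blood transcription factors led the FL side, with smaller differences. Ccl3, which encodes a chemokine (chr11:83647843-83649378), stood at 11.6, 9.23 and 12.3 FPKM in the PL libraries and 256, 304 and 222 in the FL libraries (log2 difference -4.44 ± 0.14 (SE), limma adjusted p = 5.01e-08). Its neighbour Ccl4 (chr11:83648624-83664683) was at 6.95, 4.87 and 8.6 FPKM in the PL libraries and 124, 167 and 106 in the FL libraries. In both genes the groups were well apart, and FL 2 was the highest library. The annotated spans of Ccl3 and Ccl4 overlap, so reads may have been split between them. Flt3, the receptor of a cytokine that acts on early progenitors (chr5:147330741-147400489), was at 8.98, 5.21 and 6.86 FPKM in the PL libraries and 87.1, 88.8 and 81.9 in the FL libraries (log2 difference -3.47 ± 0.16 (SE), limma adjusted p = 3.67e-07). Nfe2, a transcription factor of the megakaryocyte and erythroid lineages (chr15:103248212-103258403), was at 8.5, 5.02 and 5.81 FPKM in the PL libraries and 76, 92.7 and 82.5 in the FL libraries (log2 difference -3.53 ± 0.17 (SE), limma adjusted p = 4.35e-07). PL 1 had the highest PL value of both Flt3 and Nfe2. Further genes of this group of 15 were Cd27 (-3.77), Cd48 (-3.67), Ifi203 (-3.66), Hlf (-3.58), Bcl11a (-3.45), Il12a (-3.45), Ikzf1 (-3.38), Tbc1d10c (-3.28), Mira (-3.27), Arhgap30 (-3.24) and Cd69 (-3.23). Hlf, Bcl11a and Ikzf1 encode haematopoietic transcription factors, and Cd27, Cd48 and Cd69 surface proteins of blood cells. The PL values of these 15 genes lay between 1.07 FPKM, of Il12a in PL 2, and 20.9, of Cd69 in PL 1.

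**Figure D2:**
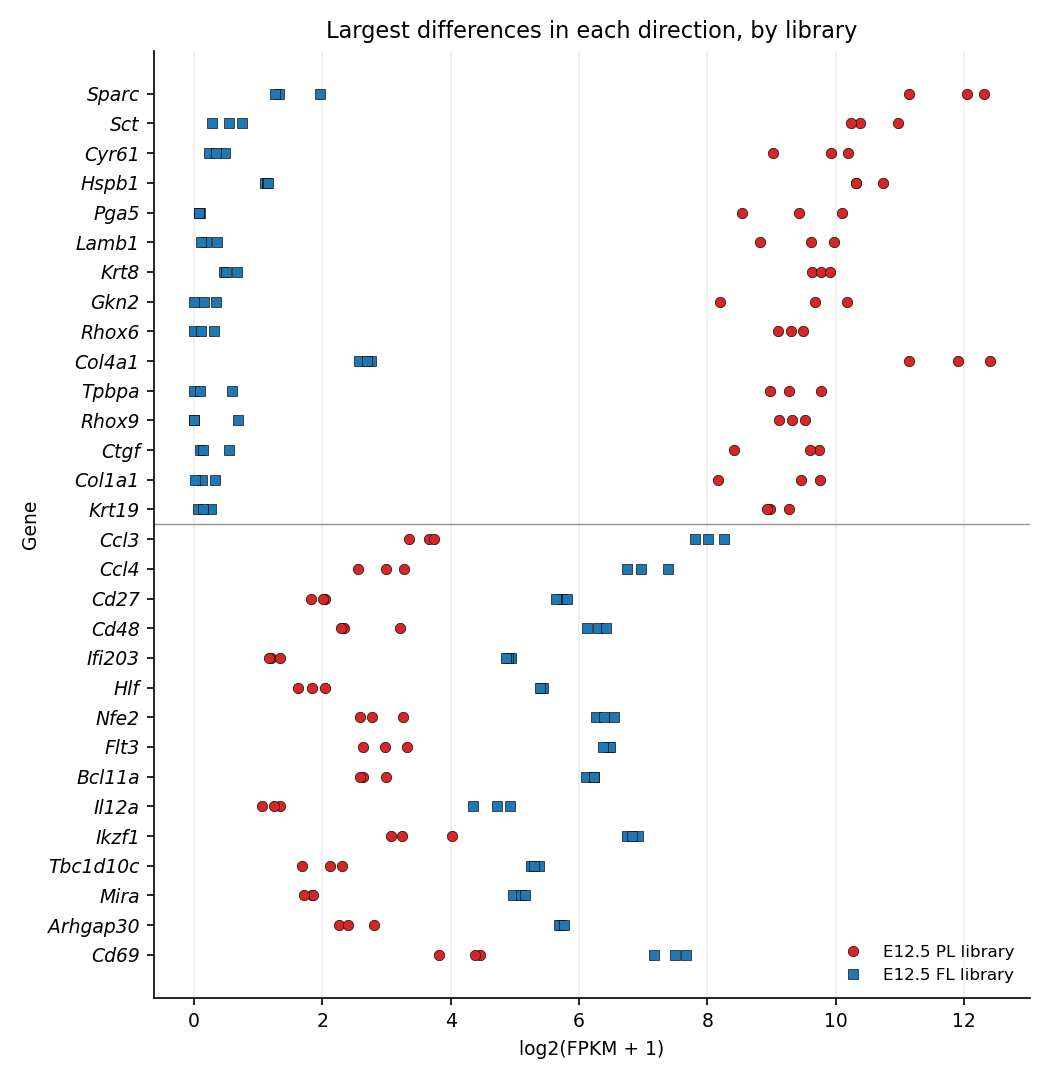
log2(FPKM + 1) in each PL library (circles) and each FL library (squares) for the 15 genes with the largest differences in each direction. The upper genes lie at no more than 5.75 FPKM in any FL library (Col4a1), and the lower genes between 1.07 FPKM for Il12a in PL 2 and 20.9 for Cd69 in PL 1 in the PL libraries, so these ranges overlap.

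The HSPC label was checked against surface markers, which did not move together. Kit stood at 60.6, 74.6 and 53 FPKM in the PL libraries and 134, 125 and 129.8 in the FL libraries (log2 difference -1.05 ± 0.12 (SE), limma adjusted p = 7.79e-05), and Cd34 at 177, 120.4 and 119.8 FPKM in the PL libraries and 338, 343 and 331 in the FL libraries (log2 difference -1.3 ± 0.15 (SE), limma adjusted p = 7.5e-05). Both were present in all 6 libraries and lower in PL without overlap. Of 26 genes of surface markers and cytokine receptors, all tested, 9 were higher in PL and 13 higher in FL, with a median difference of -0.59. Beside Flt3, Cd27 and Cd48, the FL side held Csf3r (-2.97), Cd33 (-2.72), Itga4 (-2.61), Cd244 (-1.88), Il6ra (-1.6), Csf2rb (-1.2) and Slamf1 (-0.99), which encode cytokine receptors, an integrin chain and adhesion or signalling receptors of blood cells. Procr, the endothelial protein C receptor used to sort stem cells, went the other way at 80.7, 175 and 189 FPKM in the PL libraries and 3.41, 4.59 and 4.43 in the FL libraries (log2 difference 4.77 ± 0.29 (SE), limma adjusted p = 1.89e-06). Its mean in the 7 other groups of the series ranged from 5.52 to 16.3 FPKM, and PL 1 was the lowest PL library. The PL side further held Ace (listed at 0 in FL), Cd82 (2.87), Il6st (2.05), Itga6 (1.65) and Itgb1 (1.59), and these also serve many cells outside blood. Cd93, Cxcr4, Ly6a and Csf2rb2 were not called; without PL 1, Csf2rb2 was called higher in FL, at -0.28. For Cxcr4, the receptor of Cxcl12, the 95% interval of the difference was -0.29 to 0.63, and for Ly6a, which encodes Sca-1, -0.57 to 0.20.

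Genes shared by most leukocytes were lower in PL as a group. Of 28 pan-leukocyte genes, all tested, 28 were higher in FL, with a median difference of -2.35 and a range from -3.04 to -0.90. Ptprc stood at 11.1, 6.06 and 6.56 FPKM in the PL libraries and 67.9, 63.5 and 64.4 in the FL libraries (log2 difference -2.94 ± 0.19 (SE), limma adjusted p = 2.44e-06), and its mean in the 7 other groups ranged from 62.8 to 77.9 FPKM. PL thus had the lowest mean of Ptprc among the 9 groups. Coro1a, which encodes an actin regulator of blood cells, was at 117, 60.2 and 82.2 FPKM in the PL libraries and 544, 579.8 and 577 in the FL libraries. Rac2 (difference -3.04), Btk (-3.03), Itgal (-2.97), Vav1 (-2.93) and Dock2 (-2.77), which act in leukocyte signalling and adhesion, were among those that differed most. Summed over the list, levels were 872, 504 and 612 FPKM in PL and 3258, 3508 and 3443 in FL (exact two-sided permutation test, p = 0.1, the smallest that 3 against 3 libraries allow). PL 1 was the highest PL library for 26 of the 28 genes and PL 2 the lowest for 24. In bulk RNA, fewer cells of a type and less RNA per cell cannot be told apart, so the lower leukocyte level stands beside every blood gene below, and its part in those differences was not tested.

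Most haematopoietic transcription factors were lower in PL. Of 38 genes, all tested, 33 were higher in FL and 4 in PL, and the median difference was -1.41. Of the 35 with a mean of at least 1 FPKM in both sources, 32 were higher in FL and 2 in PL. Runx1, required for the emergence of definitive blood cells, stood at 14.6, 7.89 and 6.78 FPKM in the PL libraries and 77.3, 73.5 and 74.1 in the FL libraries (log2 difference -2.89 ± 0.23 (SE), limma adjusted p = 8.36e-06). Myb, needed for definitive progenitors, stood at 21.9, 15.1 and 15.8 FPKM in the PL libraries and 142, 152 and 139.6 in the FL libraries. Tal1, a basic helix-loop-helix factor of early blood, stood at 8.1, 5.62 and 4.88 FPKM in the PL libraries and 21.4, 24.1 and 24.6 in the FL libraries. In all 3 genes the groups did not overlap and PL 1 was the highest PL library. The stem cell regulators Mecom (-0.71), Prdm16 (-0.78) and Mllt3 (-0.63) differed less than Ikzf2 (-2.88), Gfi1b (-2.87) or Lmo2 (-2.83) on the log2(FPKM + 1) scale. That scale understates low genes such as Prdm16, at 0.551, 0.413 and 0.42 FPKM in the PL libraries and 1.52, 1.68 and 1.35 in the FL libraries. Differences between these genes were not tested. Gata2, a factor of both stem cells and trophoblast giant cells, was higher in PL at 83.1, 72.1 and 66.2 FPKM in the PL libraries and 40.9, 45.4 and 46.9 in the FL libraries (log2 difference 0.72 ± 0.1 (SE), limma adjusted p = 0.000284). Cebpb (1.42), Nfia (1.62) and Tcf15 (2.71) were the other genes higher in PL. Nfia and Tcf15 were under 1 FPKM in every FL library, so they passed the filter through PL alone and had to differ. Tcf4 was not called (-0.27), and with either other scaling it was called higher in FL, which made the count there 34.

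**Figure D3:**
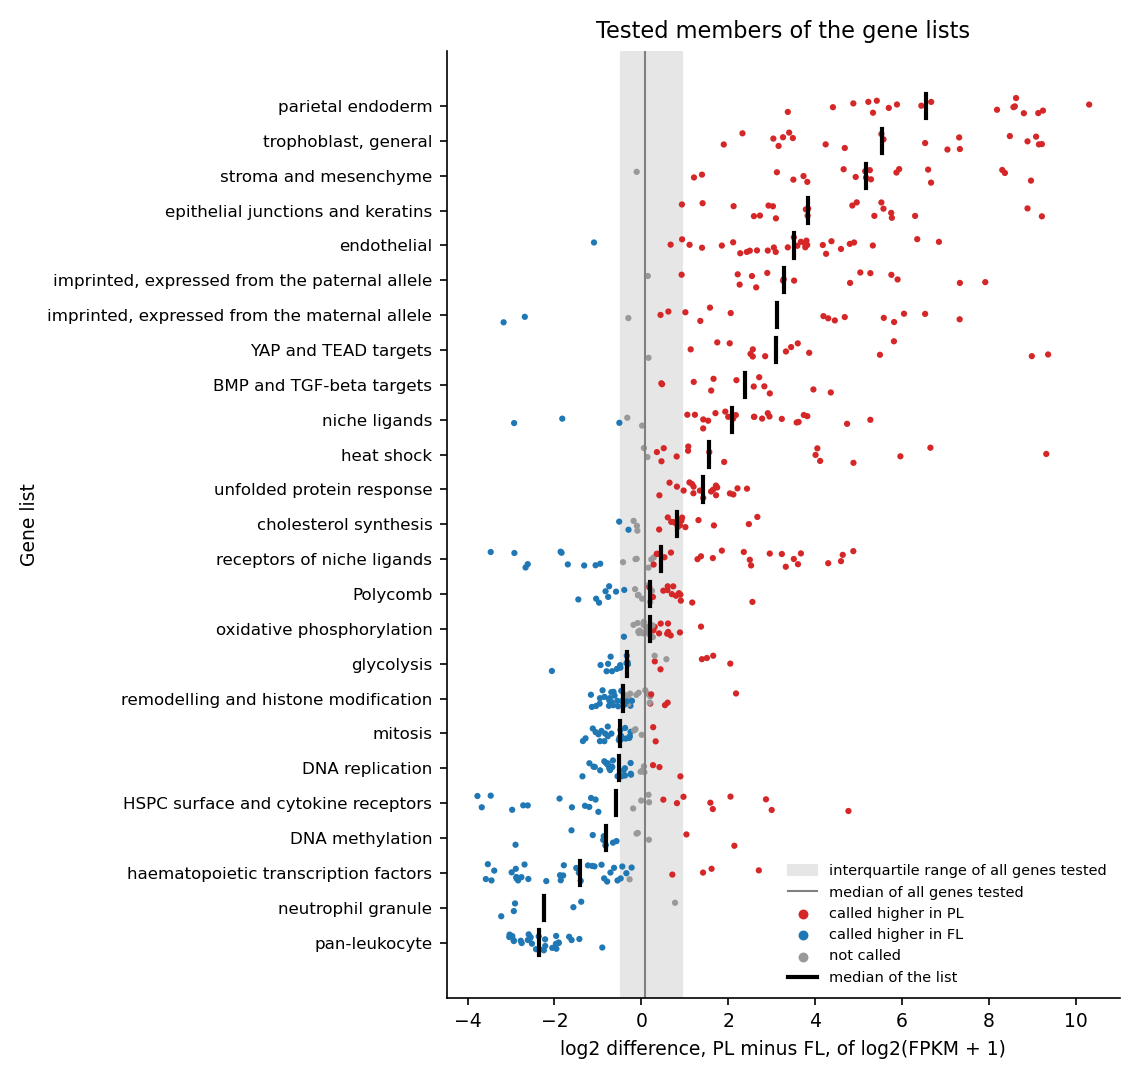
log2 difference (PL minus FL) of each tested member of 25 gene lists, coloured by call, with the median of each list (bar) and the median and interquartile range of all genes tested (line and grey band). The list medians run from 6.56 (parietal endoderm) down to -2.35 (pan-leukocyte).

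Trophoblast genes were abundant in PL and scarce in FL. Of 22 general trophoblast genes, 20 passed the filter and all 20 were higher in PL, but only 5 of them reached a mean of 1 FPKM in FL. Most thus passed through PL alone and had to differ. The same holds, in each list that follows, for the members below 1 FPKM in FL, so the number of members at that level in FL or in both sources is given beside the counts wherever more than a few fall short of it. Hand1, a transcription factor of giant cells, stood at 167, 155 and 154 FPKM in the PL libraries and was listed at 0 in the FL libraries. Tfap2c, an AP-2 factor of the trophoblast lineage, stood at 140.0, 137 and 132 FPKM in the PL libraries and 0.0585, 0.0263 and 0.028 in the FL libraries (log2 difference 7.05 ± 0.088 (SE), limma adjusted p = 1.41e-09). Plac1, an X-linked placental gene, stood at 448, 382 and 462 FPKM in the PL libraries and 0.114, 0.394 and 0.107 in the FL libraries. The PL libraries were close to each other in all 3 genes. Cdx2 (4.25) and Elf5 (listed at 0 in FL), factors of the trophoblast stem cell state, were at 18.5 ± 2.79 and 9.62 ± 0.867 FPKM in PL (SD, n = 3, as for every later level given with ± but no SE), while Eomes, another such factor, and Tfap2a did not pass the filter. Summed over the 22 genes, levels were 4913, 4746 and 5371 FPKM in PL and 43.8, 42.9 and 42.1 in FL.

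Markers of the trophoblast subtypes were measured at different levels. Of 24 prolactin-family genes, hormones of giant cells and spongiotrophoblast, 14 passed the filter, 14 were higher in PL and 0 reached 1 FPKM in FL. Prl2a1 stood at 163, 139 and 228 FPKM in the PL libraries, Prl2c5 at 139, 133 and 152 and Prl7d1 at 143, 99.2 and 179. PL 2 was the lowest PL library for 12 of the 14 and PL 3 the highest for 12. Among the 10 untested members, Prl3d1, the first placental lactogen, stood at 0.778, 0.284 and 1.27 FPKM in PL, and Prl3d2, Prl3a1 and Prl3c1 were listed at 0 in all 6 libraries. The members share sequence, so reads may have been split between near-identical copies and single values are uncertain. Of 8 placental cathepsins, 3 passed (Ctsj, Ctsr and Ctsq), all higher in PL and 0 at 1 FPKM in FL. Of 13 spongiotrophoblast and glycogen cell genes, 9 passed and were higher in PL, 1 of them at 1 FPKM in FL, among them Tpbpb (listed at 0 in FL), Pcdh12 (3.85) and Psg29 (listed at 0 in FL). Labyrinth and syncytiotrophoblast genes were uneven. Of 14 written, 10 passed, 7 higher in PL and 3 in FL (6 and 3 with either other scaling), and of the 6 with a mean of at least 1 FPKM in both sources, 3 and 3. Gcm1, the master regulator of syncytiotrophoblast, was at 0.384, 0.129 and 0.273 FPKM in PL, the syncytin gene Syna at 1.42, 1.27 and 0.578, and Synb was listed at 0 in all 6 libraries. Among the members higher in PL, the lactate carrier gene Slc16a1 stood at 94.3, 101 and 98.3 FPKM in the PL libraries and 35, 33.1 and 32.9 in the FL libraries (log2 difference 1.51 ± 0.072 (SE), limma adjusted p = 4.64e-07), and Slc16a3 (0.44), a related carrier, and Epcam (5.37), an epithelial adhesion molecule, joined it. Slc38a4, an amino acid carrier, was at 168 ± 11.9 FPKM in PL and 0.736 ± 0.104 in FL, whereas Slc22a3, an organic cation carrier, was at 6.62 ± 1.87 FPKM in PL and 66.3 ± 3.34 in FL.

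Parietal endoderm genes gave the largest median of all lists. All 18 genes passed and were higher in PL, with a median difference of 6.56, and 6 reached 1 FPKM in FL. The laminin chain gene Lama1 stood at 292, 750.3 and 533 FPKM in the PL libraries and 0.181, 0.0251 and 0.0734 in the FL libraries (log2 difference 8.81 ± 0.29 (SE), limma adjusted p = 6.36e-08), and the collagen gene Col4a2 at 1298, 3177 and 2275 FPKM in the PL libraries and 4.75, 4.45 and 4.45 in the FL libraries. The endoderm factors Gata4 (52.6, 145 and 90.4 FPKM in the PL libraries and 0.0693, 0 and 0 in the FL libraries) and Gata6 (37, 79.2 and 55.4 FPKM in the PL libraries and 0.0822, 0.0757 and 0.0528 in the FL libraries) followed. PL 1 was lowest for 17 of the 18 genes, and PL 2 highest for 17. Summed over the list, levels were 9504, 21527 and 16830.0 FPKM in PL and 37.7, 32.8 and 34.3 in FL. The visceral endoderm and hepatoblast list split instead: of 21 genes 13 passed, 5 of them with means of at least 1 FPKM in both sources, 6 were higher in PL and 4 in FL. Foxa2 (listed at 0 in FL) and Ttr (3.95) were higher in PL. Afp and Alb, liver plasma proteins, were higher in FL at low levels of 4.23, 9.17 and 5.98 and 2.86, 6.92 and 2.75 FPKM. The fibrinogen genes Fga, Fgb and Fgg did not pass, and none exceeded 0.305 FPKM in any library.

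Collagens, laminins and epithelial junction genes moved with the endoderm and trophoblast lists. Of 26 collagen and laminin genes, 21 passed and were higher in PL, with a median of 5.42; 8 reached 1 FPKM in FL. The untested ones were Col4a5, Col4a6, Lama2, Lama3 and Lamb3. Of 22 epithelial genes, 21 passed and were higher in PL (8 at 1 FPKM in FL), with a median of 3.84, including Cdh1, which encodes E-cadherin (13.7 ± 1.09 FPKM in PL and 0.0253 ± 0.00793 in FL), and the desmosome gene Dsp (35.5 ± 5.37 FPKM in PL and 0.162 ± 0.0369 in FL). Cldn9 was listed at 0 throughout. Of 10 decidual genes 8 passed and were higher in PL, 2 of them at 1 FPKM in FL. The others did not pass: Pgr, the progesterone receptor, was at 0.127, 0.0312 and 0.014 FPKM and Igfbp1 at 0.884, 1.34 and 0.315 in PL.

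Endothelial genes were higher in PL, from genes near 0 to genes well expressed in both sources. All 31 passed, 30 were higher in PL and 1 in FL, the median was 3.51, and 15 reached 1 FPKM in FL. Cdh5, which encodes the junction protein VE-cadherin, stood at 262, 245 and 219 FPKM in the PL libraries and 1.96, 2.11 and 1.82 in the FL libraries (log2 difference 6.36 ± 0.093 (SE), limma adjusted p = 1.61e-09). Kdr, a VEGF receptor, stood at 71.4, 50.9 and 39.1 FPKM in the PL libraries and 1.08, 1.17 and 1.34 in the FL libraries. Pecam1, shared by endothelium and HSPCs, stood at 201, 140.2 and 119 FPKM in the PL libraries and 26.5, 28.3 and 25.9 in the FL libraries. Groups did not overlap for these 3 genes. Pecam1 (2.43) differed least of the 3, but other genes of the list differed less, among them Robo4 (2.12) and Sox18 (1.4). The difference of Gja5 (1.11) is understated on the log2(FPKM + 1) scale, because it was under 1 FPKM in every FL library. The arterial genes Efnb2 (3.8), Hey1 (3.82) and Dll4 (2.91), the venous genes Nr2f2 (4.26) and Ephb4 (3.78), and Lyve1 (4.38) and Stab2 (3.05), genes of sinusoidal and lymphatic endothelium, were all higher in PL. Egfl7, a secreted factor, was the gene higher in FL at 106, 73.4 and 93.2 FPKM in the PL libraries and 191, 204 and 183 in the FL libraries (log2 difference -1.09 ± 0.13 (SE), limma adjusted p = 0.000103). PL 1 was the highest PL library for 24 of the 31 genes, as it was for leukocyte genes.

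Stromal genes followed the opposite library pattern. Of 23 genes, 20 passed, 3 of them at 1 FPKM in FL, so that the rest passed through PL alone; 19 were higher in PL and 1, Pdgfrb, was not called at 4, 6.33 and 6.58 FPKM in the PL libraries and 6.05, 5.69 and 6.31 in the FL libraries. Dcn, which encodes the proteoglycan decorin, stood at 38.4, 62.6 and 94.9 FPKM in the PL libraries and 0, 0.0414 and 0 in the FL libraries (log2 difference 5.94 ± 0.28 (SE), limma adjusted p = 4.11e-07), and Acta2, smooth muscle actin, at 58, 105 and 165 FPKM in the PL libraries and 0.0646, 0.0278 and 0.0303 in the FL libraries. PL 1 was lowest for 17 of the 20 genes and PL 3 highest for 13. The pericyte gene Cspg4, Thy1 and Mfap5 did not pass. The order of the PL libraries thus differed between lists. The median deviation from the PL mean was -0.78, 0.29 and 0.46 in PL 1, PL 2 and PL 3 for stroma, -0.65, 0.51 and 0.10 for parietal endoderm, 0.44, -0.29 and -0.12 for pan-leukocyte genes and -0.01, -0.05 and 0.10 for general trophoblast genes. The 10 genes most uneven between the PL libraries were small RNAs (Mir703, Snora64, Snora28, Snord22, Snora81) and genes with near-identical copies (Rps27 with Rps27rt, Amd1 with Amd2, and Eif3j2), and all of these also varied among the FL libraries. Col12a1, Mgp and Lum, matrix genes outside those 10 that were chosen after their values were seen, stood at 2.5, 16.4 and 14, 3.24, 12 and 19.1 and 44.9, 133 and 197 FPKM in PL. Summed levels were 2077, 1725 and 1643 FPKM in PL and 360.0, 382 and 354 in FL for the endothelial list and 1280.0, 2742 and 3337 FPKM in PL and 24.5, 21.2 and 24.7 in FL for the stromal list. These lists and those of trophoblast and parietal endoderm stand beside every ligand, signalling, matrix, stress and imprinted gene below that is higher in PL, and their part in those differences was not tested.

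**Figure D4:**
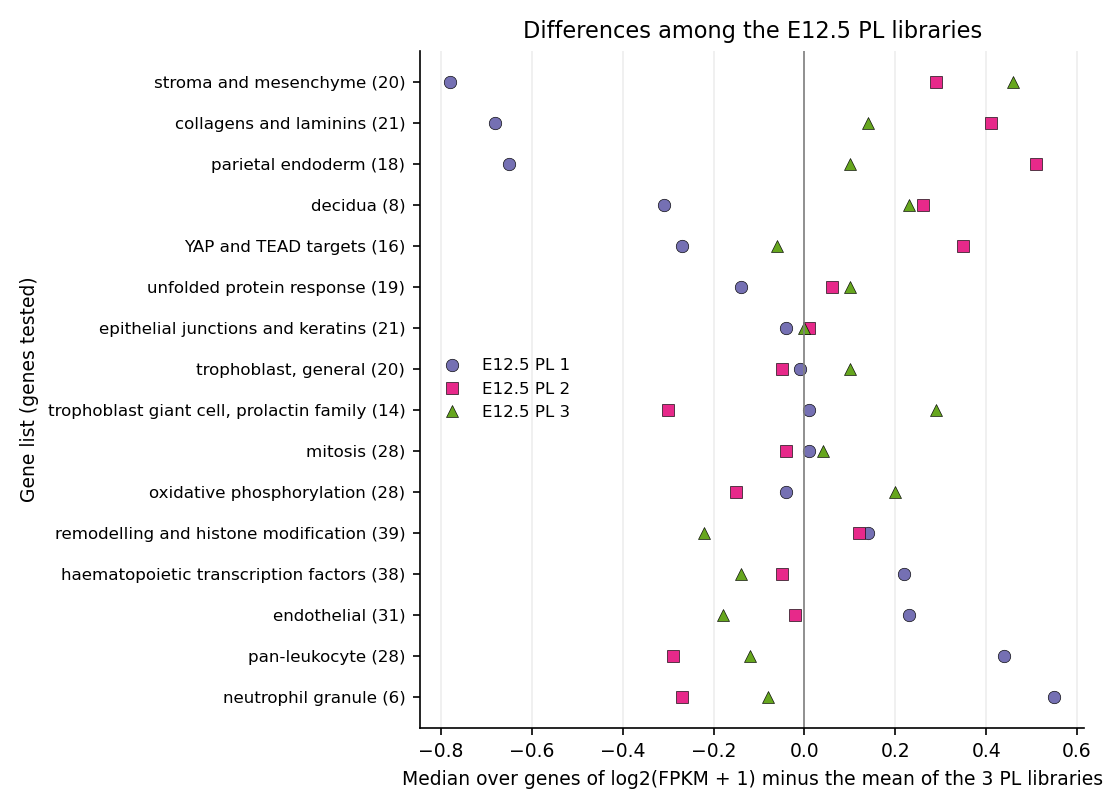
Median over the tested genes of a list of log2(FPKM + 1) in each PL library minus the mean of the 3 PL libraries, for 16 lists. PL 1 lies lowest for stroma (-0.78), collagens and parietal endoderm and highest for pan-leukocyte (0.44) and endothelial genes, while the libraries lie together for general trophoblast and epithelial genes.

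Lists of mature blood lineages were mostly low in both sources. Of 12 neutrophil granule genes, 6 passed and 5 were higher in FL: Mpo, the myeloperoxidase of early myeloid cells, stood at 106, 53.3 and 64.1 FPKM in the PL libraries and 624, 709 and 691 in the FL libraries (log2 difference -3.22 ± 0.22 (SE), limma adjusted p = 3.43e-06), and Prtn3 (-2.93), Ctsg (-2.91), Ms4a3 (-1.56) and Elane (-1.38) followed. Of the 6, 3 reached 1 FPKM in both sources, 2 of them higher in FL. The late granule genes Ltf, Camp, Ngp and Fcnb did not pass. Of 16 macrophage genes 8 passed, 3 being higher in each source. Of the 5 that reached 1 FPKM in both sources, 1 was higher in PL and 2 in FL. Csf1r (-1.86) and Lyz2 (-2.25) were higher in FL and Mertk (3.33) and Maf (1.42) in PL, while Adgre1, a macrophage surface receptor gene, Timd4 and Cd163 did not pass. Of 17 lymphoid genes 8 passed, with Il7r (-2.66), Cd79b (-2.85) and Rag2 (-2.02) among the 5 higher in FL. The other 3, Tcf7 (1.16), Ebf1 (0.8) and Lck (0.31), were higher in PL (2 with either other scaling). Only 4 of the 8 reached 1 FPKM in both sources, 2 of them higher in PL and 2 in FL. Of 9 natural killer genes 3 passed, 2 higher in FL and 1, Il2rb (1.71), in PL. Of 9 mast cell genes 2 passed and 1, Cpa3 (-1.07), was higher in FL. Among 18 megakaryocyte genes that passed, of 19, 10 were higher in PL and 3 in FL (5 without PL 1), and of the 13 with a mean of at least 1 FPKM in both sources, 6 and 2. Pf4, a platelet chemokine, stood at 56.1, 30.7 and 56.4 FPKM in the PL libraries and 2.2, 4.09 and 5.21 in the FL libraries (log2 difference 3.34 ± 0.29 (SE), limma adjusted p = 1.57e-05). Itga2b, an early megakaryocyte integrin chain, was not called, with an interval of -0.77 to 0.23.

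Red cell genes differed in level and direction. Of 16 erythroid genes 14 were listed, of which 7 passed, 4 higher in PL and 1, Hemgn (-1.49), in FL (2 without PL 1). Summed levels were 585, 562 and 750.0 FPKM in PL and 147, 162 and 152 in FL, and most of that was Car2, a carbonic anhydrase that is not confined to red cells, at 515, 504 and 698 FPKM in the PL libraries and 105, 119 and 114 in the FL libraries (log2 difference 2.32 ± 0.13 (SE), limma adjusted p = 1.3e-06). The receptor genes Tfrc (0.62) and Epor (1.38) were higher in PL, and Slc4a1 and Alas2 did not pass. Hbb-y stood at 19.1, 0.919 and 23.7 FPKM in the PL libraries and 9.17, 30.9 and 0.546 in the FL libraries (limma adjusted p = 0.833). Its libraries overlapped, and each group held both high and low libraries. Of 9 globin genes measured, 6 passed, and the 2 called, Hbb-b1 (-2.68) and Hbb-b2 (-2.48), are near-identical copies, and the libraries of Hbb-b1 overlapped between the groups.

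Ligands known from blood niches and their receptors were divided between the sources. Of 36 ligand genes 28 passed, 23 higher in PL and 3 in FL, with a median of 2.10, and of the 15 with a mean of at least 1 FPKM in both sources, 10 and 3. Of 38 receptor genes, all tested, 22 were higher in PL and 10 in FL, with a median of 0.46, and of the 30 with a mean of at least 1 FPKM in both sources, 15 and 9. Kitl, the ligand of Kit, stood at 32.9, 26.8 and 21.8 FPKM in the PL libraries and 0.0551, 0.0296 and 0.0337 in the FL libraries (log2 difference 4.74 ± 0.15 (SE), limma adjusted p = 5.6e-08). Cxcl12, the chemokine that retains HSPCs, stood at 8.45, 20.7 and 18.4 FPKM in the PL libraries and 0.218, 0.0859 and 0.0608 in the FL libraries. Both ligand genes were under 1 FPKM in every FL library, while the receptor gene Kit was higher in FL and Cxcr4 was not called. The angiopoietin pair ran the other way. Angpt1 stood at 9.78, 5.79 and 5.98 FPKM in the PL libraries and 62.9, 57.1 and 59.4 in the FL libraries (log2 difference -2.93 ± 0.17 (SE), limma adjusted p = 1.46e-06), and its receptor gene Tek at 37.4, 34.1 and 29.3 FPKM in the PL libraries and 8.47, 8.64 and 8.44 in the FL libraries (log2 difference 1.86 ± 0.1 (SE), limma adjusted p = 1.14e-06). Angpt2, its antagonist, was higher in PL (3.62). Tgfb1 (-1.82) was higher in FL while Tgfb2 (2.6) and the receptor genes Tgfbr1 (0.36), Tgfbr2 (0.39) and Tgfbr3 (2.36) were higher in PL. Thpo, Epo, Il7, Shh, Wnt3a, Wnt5a and Fgf2 did not pass, and Flt3l was not called, beside the large difference in Flt3.

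Of 9 Notch pathway genes, receptors included, 8 passed, 7 higher in PL and 1 in FL, but only 3 of them reached 1 FPKM in FL, and the other members could pass through PL alone. Those at that level in both sources included Hes1 at 150.4, 166 and 181 FPKM in the PL libraries and 32.8, 36.4 and 25.8 in the FL libraries (log2 difference 2.36 ± 0.13 (SE), limma adjusted p = 1.12e-06); the receptor genes Notch1 (-1.69) and Notch4 (2.96) differed in opposite directions. All 12 BMP and TGF-beta targets passed and were higher in PL, 8 of them at 1 FPKM in FL, with a median of 2.39; with median-of-ratios scaling 11 were, and with equal FPKM sums 10. Id3 stood at 126, 103 and 130.1 FPKM in the PL libraries and 30.0, 24 and 22.3 in the FL libraries, and Smad7, an inhibitor of the pathway, differed by 2.96. Of 10 Wnt targets only 4 passed, 3 of them higher in PL and 3 at 1 FPKM in FL, while Axin2 and Lef1 did not pass. Chemokine and cytokine genes were divided: Tnf (-2.98), Ccl9 (-3.06) and Il15 (-2.21) joined Ccl3 and Ccl4 on the FL side, and Cxcl1 (4.36), Cxcl10 (3.23), Ccl2 (2.75), Cxcl16 (2.66) and Lif (0.83) were higher in PL. Of 12 that passed, 5 were higher in PL and 6 in FL, and of the 7 with a mean of at least 1 FPKM in both sources, 1 and 5.

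Targets of YAP and its partner TEAD factors were among the largest differences, and their promoters are shown because the list moved together. All 16 passed, 15 were higher in PL, 7 reached 1 FPKM in FL and the median was 3.09; Fjx1 was not called. Cyr61 stood at 520.0, 1171 and 973 FPKM in the PL libraries and 0.39, 0.175 and 0.261 in the FL libraries (log2 difference 9.37 ± 0.26 (SE), limma adjusted p = 2.75e-08). Ajuba, a LIM-domain adaptor, stood at 8.96, 19.9 and 13.8 FPKM in the PL libraries and 1.26, 1.51 and 1.6 in the FL libraries, and Ankrd1, an ankyrin-repeat protein, at 2.32, 5.04 and 8.7 FPKM in the PL libraries and 0, 0 and 0.0382 in the FL libraries. PL 1 was the lowest PL library for 9 of the 16. The 4 TEAD genes were themselves higher in PL, with Tead4 listed at 0 in FL and Tead2 at 37.3 ± 3.47 FPKM in PL and 2.3 ± 0.397 in FL. The 250 bases before the start of each gene, from RefSeq (GRCm38.p6), were searched on both strands for the TEAD motif GGAATG, the RUNX motif TGTGGT and the GATA factor motif AGATAA, and no match in the windows printed here overlaps another. Windows were matched for 12 of the 16 genes, and 7 of their 13 windows (53.8%) held GGAATG, against 10.5% of the 12747 windows of tested genes. TGTGGT was in 3 of the 13 (23.1%), against 10.6% of tested genes' windows. Of 25 windows of the pan-leukocyte genes, 4 (16%) held TGTGGT and 4 (16%) GGAATG. The YAP list was written from genes known as targets of TEAD factors, so its share of GGAATG may come from that choice and says nothing of PL. Among the 3015 windows of all genes at least 2-fold higher in PL, 12.7% held GGAATG. Shares of so few windows as those of the 2 lists are a description and were not tested. Below are 3 windows of the YAP list, chosen because they hold GGAATG, and 2 of pan-leukocyte genes, chosen because they hold TGTGGT, which most windows of that list lack (Was at -1.6 and Fermt3 at -2.42). All 5 genes lie on the minus strand, each window is printed 5′ to 3′ on the gene's strand, and capitals mark the motif matches. They lie at chr3:145649986-145650235 (Cyr61), chr14:54577662-54577911 (Ajuba), chr19:36119845-36120094 (Ankrd1), chrX:8090492-8090741 (Was) and chr19:7019470-7019719 (Fermt3).
Cyr61: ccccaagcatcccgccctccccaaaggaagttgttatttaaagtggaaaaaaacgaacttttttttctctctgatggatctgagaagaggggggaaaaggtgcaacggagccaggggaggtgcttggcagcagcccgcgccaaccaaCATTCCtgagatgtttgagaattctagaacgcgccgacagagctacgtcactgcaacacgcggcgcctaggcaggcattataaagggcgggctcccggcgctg
Ajuba: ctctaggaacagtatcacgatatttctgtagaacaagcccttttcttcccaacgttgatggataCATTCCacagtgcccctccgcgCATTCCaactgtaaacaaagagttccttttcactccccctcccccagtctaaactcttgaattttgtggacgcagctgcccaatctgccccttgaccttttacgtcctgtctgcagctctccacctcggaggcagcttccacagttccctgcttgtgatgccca
Ankrd1: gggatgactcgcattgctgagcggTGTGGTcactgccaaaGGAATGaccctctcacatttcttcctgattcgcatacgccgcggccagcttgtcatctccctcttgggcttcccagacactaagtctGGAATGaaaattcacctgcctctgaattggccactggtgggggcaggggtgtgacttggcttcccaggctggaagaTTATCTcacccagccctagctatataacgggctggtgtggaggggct
Was: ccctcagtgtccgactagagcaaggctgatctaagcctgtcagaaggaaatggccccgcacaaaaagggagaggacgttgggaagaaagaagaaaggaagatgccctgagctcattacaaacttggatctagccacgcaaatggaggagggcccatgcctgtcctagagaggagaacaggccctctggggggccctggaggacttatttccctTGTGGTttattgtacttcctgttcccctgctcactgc
Fermt3: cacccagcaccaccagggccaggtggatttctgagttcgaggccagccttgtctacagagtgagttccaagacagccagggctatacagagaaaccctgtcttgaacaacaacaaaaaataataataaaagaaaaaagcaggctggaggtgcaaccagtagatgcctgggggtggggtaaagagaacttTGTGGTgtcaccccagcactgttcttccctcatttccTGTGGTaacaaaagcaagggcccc
The match in Cyr61 began 103 bases before the start. Ajuba held 2 TEAD matches, and Ankrd1 held 2 beside 1 GATA factor match and 1 RUNX match. The Was window held 1 RUNX match and the Fermt3 window 2. A match describes these letters and is not evidence of binding.

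Proliferation genes were moderately lower in PL. Of 30 replication genes, all tested, 23 were higher in FL and 3 in PL (median -0.52), and of 28 mitosis genes 23 and 2 (median -0.50). Pola1, a replicative polymerase subunit, stood at 13.7, 10.2 and 8.82 FPKM in the PL libraries and 32, 26.9 and 28 in the FL libraries (log2 difference -1.35 ± 0.15 (SE), limma adjusted p = 6.62e-05), and Mki67, the gene of the Ki-67 antigen, at 34.8, 28.2 and 17.1 FPKM in the PL libraries and 54.1, 39.3 and 48.9 in the FL libraries (log2 difference -0.85 ± 0.24 (SE), limma adjusted p = 0.011). Rrm2, a subunit of ribonucleotide reductase, was higher in PL at 170.1, 146 and 159.8 FPKM in the PL libraries and 83.8, 87.1 and 82.3 in the FL libraries (log2 difference 0.9 ± 0.082 (SE), limma adjusted p = 1.84e-05). The 3 replication genes higher in PL were Rrm2, Orc6 and Orc1, reduced to 2 with median-of-ratios scaling and 1 with equal FPKM sums; the 2 mitosis genes, Birc5 and Ccna2, became 1 and 0. Of 14 genes of D and E cyclins, their kinases and CDK inhibitors, 10 were higher in PL and 3 in FL, and of the 11 with a mean of at least 1 FPKM in both sources, 7 and 3. Cdkn1c, the imprinted inhibitor p57, stood at 2319, 1999.9 and 2229.9 FPKM in the PL libraries and 12.4, 14 and 11.3 in the FL libraries (log2 difference 7.33 ± 0.1 (SE), limma adjusted p = 1.41e-09), and Cdkn2a (listed at 0 in FL), Cdkn2c (2.22), Cdkn1a (2.07) and Cdkn2b (2.01) were also higher in PL. The kinase gene Cdk6, in contrast, stood at 5.8, 2.55 and 1.62 FPKM in the PL libraries and 33.2, 20.5 and 29.2 in the FL libraries (log2 difference -2.82 ± 0.33 (SE), limma adjusted p = 8.56e-05). Among D cyclins, Ccnd2 (-1.88) was higher in FL and Ccnd3 (1.15) and Ccnd1 (0.8) in PL, and the E cyclins Ccne1 (2.18) and Ccne2 (1.56) were higher in PL.

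In glycolysis genes went both ways, and related genes differed in opposite directions. Of 23 glycolysis genes 21 passed, 13 higher in FL and 6 in PL (median -0.33). The glucose carrier Slc2a1 stood at 146, 163 and 161 FPKM in the PL libraries and 50.5, 49.9 and 46.5 in the FL libraries (log2 difference 1.66 ± 0.08 (SE), limma adjusted p = 4.68e-07), and Slc2a3 at 11.3, 8.78 and 7.06 FPKM in the PL libraries and 40.6, 41.1 and 39 in the FL libraries (log2 difference -2.06 ± 0.15 (SE), limma adjusted p = 4.47e-06). Each carrier gene was thus higher in a different source, without overlap. Ldhb (74.9 ± 5.67 FPKM in PL and 17.3 ± 1.61 in FL) was higher in PL and Ldha (476 ± 54.5 FPKM in PL and 774 ± 20.3 in FL) in FL, and among phosphofructokinases Pfkp (1.4) was higher in PL and Pfkl (-0.94) in FL. Of 28 oxidative phosphorylation genes, all tested, 10 were higher in PL and 1 in FL, with a median of 0.19, and that direction depends on scaling: 6 and 2 with median-of-ratios scaling (median 0.11), and 5 and 13 with equal FPKM sums (median -0.12). PL 3 was the highest PL library for 25 of the 28. Cholesterol synthesis genes were higher in PL for 15 of 20, with 2 higher in FL (5 with equal sums), led by Insig1 (2.67), a sterol sensor, and Hsd17b7 (2.48). Of 20 hypoxia-response genes, all tested, 13 were higher in PL, among them Adm at 36 ± 3.79 FPKM in PL and 0.337 ± 0.107 in FL and the collagen hydroxylase P4ha2 at 315 ± 127 FPKM in PL and 0.293 ± 0.146 in FL, and 5 in FL, with Pdk1 (-1.61) and Egln3 (-1.53). In the carrier list, where 21 of 21 passed, 18 of them with means of at least 1 FPKM in both sources, 14 were higher in PL and 5 in FL; the iron exporter Slc40a1 (2.33) and the folate receptor gene Folr1 (listed at 0 in FL) were in the first set and Slc1a5 (-1.44), a glutamine carrier, in the second.

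Stress genes were higher in PL. All 19 genes of the unfolded protein response passed and were higher in PL (median 1.43), 18 with equal FPKM sums. Hspa5, the chaperone BiP, stood at 1107, 1181 and 1302 FPKM in the PL libraries and 278, 318 and 273 in the FL libraries (log2 difference 2.04 ± 0.11 (SE), limma adjusted p = 7.56e-07), and PL 1 was the lowest PL library for 17 of the 19. Of 17 heat shock genes, 15 were higher in PL and 2 not called, 13 and 12 with the other scalings. Hspa1b stood at 466, 602 and 669 FPKM in the PL libraries and 7.26, 33.8 and 24.4 in the FL libraries (log2 difference 4.89 ± 0.46 (SE), limma adjusted p = 2.33e-05), while Hsp90ab1 and Hspd1 were the 2 not called. Hspa1b has a near-identical copy, Hspa1a (4.01), and reads may have been split between them. Of 23 immediate-early genes, 17 were higher in PL and 2 in FL. Fos stood at 239, 313 and 319.8 FPKM in the PL libraries and 51.7, 71.4 and 53.1 in the FL libraries (log2 difference 2.29 ± 0.16 (SE), limma adjusted p = 3.38e-06), Atf3 at 405, 793 and 607 FPKM in the PL libraries and 6.3, 6.44 and 4.42 in the FL libraries and Klf4 at 116, 219 and 152 FPKM in the PL libraries and 2.64, 3.11 and 2.27 in the FL libraries. Jun was not called, with an interval of -0.27 to 0.65, and Nr4a1 (-0.73) and Zfp36 (-0.47) were higher in FL. Of 18 p53 targets, 14 were higher in PL, led by Phlda3 (3.36), and 3 in FL, led by Sesn1 (-1.77); in the Bcl2 family, where 16 of 18 passed, 13 of them with means of at least 1 FPKM in both sources, Bid (-2.62) and Bcl2 (-0.85) were among the 5 higher in FL and Bik (3.28) and Bcl2l2 (1.48) among the 10 higher in PL.

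Interferon and antigen presentation genes were split. Of 29 interferon-response genes 27 passed, 18 higher in PL and 6 in FL, and of the 21 with a mean of at least 1 FPKM in both sources, 13 and 5. Rsad2 (4.8), Isg15 (3.25) and Irf7 (2.39) were higher in PL, and Ifi203, Oas2 (-0.97) and Ifitm1 (-0.94) in FL. For class I presentation, 13 of 14 genes passed, 4 higher in PL and 6 in FL. The immunoproteasome genes Psmb8 (-1.91), Psmb9 (-1.82) and Psmb10 (-1.21) and the peptide transporter genes Tap1 (-0.78) and Tap2 (-1.28) were higher in FL. The class I heavy chain H2-K1 stood at 79.4, 73.8 and 82 FPKM in the PL libraries and 73.9, 79.8 and 72.6 in the FL libraries and was not called (interval -0.13 to 0.24; with equal FPKM sums it was called higher in FL, at -0.25), while H2-D1 (1.26), H2-Q4 (1.45) and H2-Q7 (1.71) were higher in PL; these genes share sequence. The integrin list was also split. Of 20 genes 18 passed, 10 higher in PL and 7 in FL, and of the 13 with a mean of at least 1 FPKM in both sources, 6 and 6. The leukocyte chains Itgal, Itgam (-2.78), Itgb2 (-2.55), Itgb7 (-1.22) and Itga4 were higher in FL, and Itgb5 (4.92), Itga3 (4.84), Itga1 (3.68) and Itgb3 (2.64) in PL. Coagulation regulators, which include Procr, were higher in PL for 12 of the 13 genes that passed of 17 written (16 in the table), 10 of them at 1 FPKM in FL, such as F3, the tissue factor gene (341 ± 161 FPKM in PL and 4.65 ± 0.657 in FL), and Anxa2 (449 ± 95.9 FPKM in PL and 2.81 ± 0.462 in FL); F5 (-0.78) was higher in FL.

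Imprinted genes of both parental classes were mostly higher in PL, also among members measured in both sources. Of 18 paternally expressed genes 17 passed, 16 higher in PL and 0 in FL (median 3.28), and of the 11 with a mean of at least 1 FPKM in both sources, 10 and 0. Of 18 maternally expressed genes, all tested, 15 were higher in PL and 2 in FL (median 3.13), and of the 13 with a mean of at least 1 FPKM in both sources, 10 and 2. Igf2, a fetal growth factor, stood at 1801, 1664 and 1521 FPKM in the PL libraries and 39.7, 43.2 and 42.6 in the FL libraries (log2 difference 5.28 ± 0.091 (SE), limma adjusted p = 3.46e-09). H19, the maternally expressed RNA beside it, stood at 4828, 4582 and 4714 FPKM in the PL libraries and 90.0, 111 and 91.5 in the FL libraries (log2 difference 5.59 ± 0.11 (SE), limma adjusted p = 5.01e-09) and was among the 10 genes with the highest mean in PL. The groups did not overlap for either gene. The oppositely imprinted pair Dlk1 and Meg3 also shared a direction, with Dlk1 at 229 ± 15.4 FPKM in PL and 35.8 ± 3.57 in FL and Meg3 at 201 ± 55.3 FPKM in PL and 1.99 ± 0.43 in FL. Phlda2, which limits placental growth, was at 109 ± 19 FPKM in PL and 0.169 ± 0.0772 in FL. Tspan32 (-2.68) and Slc22a3 (-3.17) were the exceptions higher in FL, and Impact and Ppp1r9a were not called. Alleles were not told apart in these values. Among fetal growth regulators, the RNA-binding protein gene Lin28b stood at 5.3, 2.63 and 2.33 FPKM in the PL libraries and 32.9, 30.2 and 31.5 in the FL libraries (log2 difference -2.94 ± 0.22 (SE), limma adjusted p = 6.21e-06) and its target Hmga2 at 43.6, 24.2 and 24.8 FPKM in the PL libraries and 264, 266 and 268 in the FL libraries, both higher in FL, whereas Lin28a (0.78) was higher in PL.

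Within the Hoxa cluster the direction changed along the chromosome. The genes from Hoxa2 to Hoxa9 (chr6:52162417-52227370) that passed the filter were all higher in FL, and those from Hoxa10 to Hoxa13 (chr6:52231197-52260880) all higher in PL. Hoxa9, a factor of HSPC self-renewal, stood at 5.8, 3.91 and 4.71 FPKM in the PL libraries and 32.5, 33.5 and 35.9 in the FL libraries (log2 difference -2.6 ± 0.13 (SE), limma adjusted p = 5.63e-07). Its neighbour Hoxa10 stood at 6.12, 7.05 and 7.53 FPKM in the PL libraries and 3.07, 4.02 and 3.79 in the FL libraries (log2 difference 0.77 ± 0.13 (SE), limma adjusted p = 0.00069). Neither gene overlapped between the groups. Hoxa11 and Hoxa13 stood at 3.74, 4.19 and 5.2 and 7.48, 5.78 and 7.43 FPKM in PL and were listed at 0 in FL, so they passed through PL alone. Hoxa2, Hoxa3 and Hoxa6 had PL means under 1 FPKM and could pass through FL alone. Differences of the other Hoxa genes that passed were Hoxa2 (-0.55), Hoxa3 (-1.26), Hoxa5 (-1.66), Hoxa6 (-1.64) and Hoxa7 (-2.28), and Hoxa4 did not pass. In the other clusters, no gene tested was called higher in FL. All of those tested except Hoxb3 and Hoxb4 were under 1 FPKM in every FL library, passed through PL alone and could not be. Hoxd8 at 6.17, 5.23 and 4.43 FPKM in PL was listed at 0 in FL, as were Hoxd4 and Hoxd10, and Hoxb7 (1.6), Hoxb9 (1.02), Hoxb2 (1.04) and Hoxc6 (1.52) were higher in PL. Of 35 Hox genes in the list 18 passed, 9 of them at 1 FPKM in FL, 10 higher in PL and 6 in FL, and Hoxb3 and Hoxb4 were not called. Of the 6 with a mean of at least 1 FPKM in both sources, 1 was higher in PL and 3 in FL. The annotated spans of several Hox genes overlap, so reads may have been split between neighbours.

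**Figure D5:**
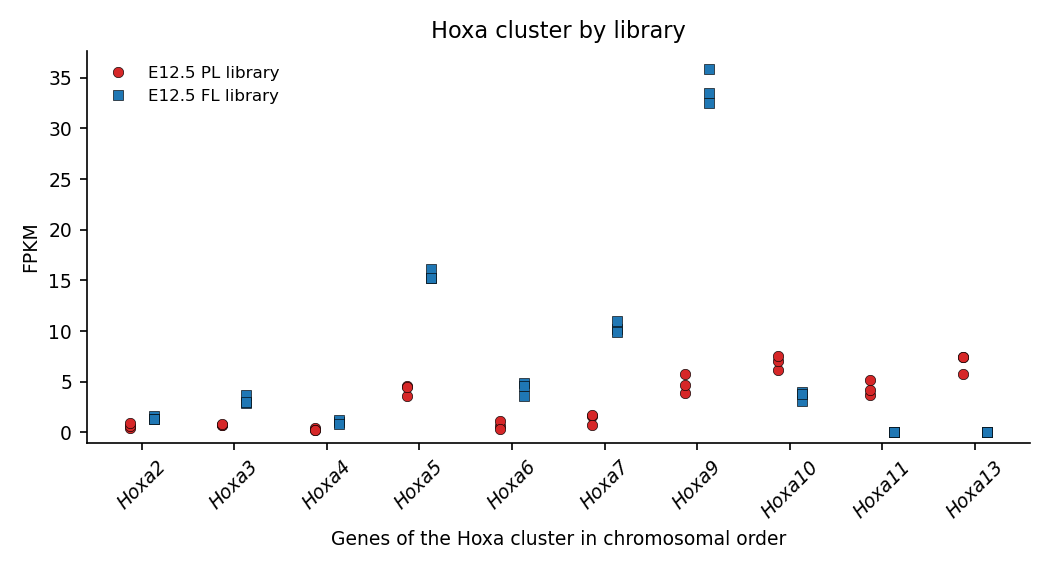
FPKM of 10 genes of the Hoxa cluster, in chromosomal order, in each PL library (circles) and each FL library (squares). FL lies above PL up to Hoxa9 (33.9 FPKM in FL and 4.81 in PL in the mean), and PL lies above FL from Hoxa10 on.

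Lists of chromatin regulators had medians from -0.82 to 0.20, and that of Polycomb genes turned to -0.09 with equal FPKM sums. Of 17 DNA methylation genes 15 passed, 10 higher in FL and 2 in PL, with a median of -0.82. The de novo methyltransferase gene Dnmt3b stood at 25.9, 17.7 and 17.1 FPKM in the PL libraries and 157, 143 and 163 in the FL libraries (log2 difference -2.89 ± 0.15 (SE), limma adjusted p = 6.99e-07), and Dnmt1, Dnmt3a, Uhrf1 and the 3 Tet genes were higher in FL with differences from -1.61 to -0.82. Zfp57, which protects imprints, was higher in PL at 8.71, 9.63 and 8.66 FPKM in the PL libraries and 1.44, 1.03 and 1.33 in the FL libraries. Of 28 Polycomb genes, all tested, 13 were higher in PL and 8 in FL (8 and 10 with equal FPKM sums). Core subunits of PRC2 were lower in PL (Ezh2 -0.82, Suz12 -0.58) while Eed was not called and Ezh1 (0.71) was higher, and among PRC1 genes Bmi1 (-1.04) was lower and Cbx7 (2.56) and Pcgf5 (0.9) higher. Of 39 remodelling and histone modification genes, all tested, 24 were higher in FL and 5 in PL (median -0.42). Smarcd3 (2.18), a subunit of the BAF complex, was the largest toward PL, and Smarcc1 (-1.16) and Arid1a (-1.14) the largest toward FL in that list. PL 3 was the lowest PL library for 32 of the 39, and without it 9 genes were higher in PL. With tested genes divided into 4 equal groups by transcript length (GENCODE transcripts, matched for 96.3% of genes tested), in the group with the longest transcripts, PL 3 lay a median of 0.15 below the other PL libraries, and in the shortest 0.07 above them. The part of length in these counts was not tested; the median PL minus FL difference was 0.14 in the shortest group and 0.06 in the longest.

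In 13 of 28 families of related genes, at least 1 member was higher in each source. Of all genes tested, 41.4% were called higher in PL and 32.4% in FL, so sets of any genes often hold both directions. The count is therefore a description of these families and not a trait of related genes. Gata1 (-1.08), the erythroid and megakaryocyte member, was higher in FL and Gata2, Gata3 (1.9), Gata4 and Gata6 in PL. The Rac GTPase gene of blood, Rac2, was lower in PL and Rac1 (0.47) and Rac3 (1.64) higher, and Vav1 and Vav3 (-1.71) stood against Vav2 (1.12). The plastin of leukocytes, Lcp1 (52.8 ± 9.11 FPKM in PL and 198 ± 3.48 in FL), stood against Pls3 (40.4 ± 3.83 FPKM in PL and 2.59 ± 0.257 in FL), and the B-type lamins Lmnb1 (-0.69) and Lmnb2 (-0.86) against Lmna (95 ± 24.8 FPKM in PL and 3.03 ± 0.38 in FL). In other families all tested members shared a direction: Runx1, Runx2 (-2.5) and Runx3 (-1.64) were higher in FL, and Sox7 (4.41), Sox17 (4.8) and Sox18 (1.4), the SoxF factors, in PL. Of these, Sox7 was in the parietal endoderm list and Sox17 and Sox18 in the endothelial list. Sox17 stood at 25.5, 44.9 and 43.6 FPKM in the PL libraries, lowest in PL 1, whereas PL 1 was highest for 24 of the 31 endothelial genes. Some genes hardly differed. Of the 3297 genes not called, 2224 had a 95% interval within 0.5 of 0 on the log2 scale. Myc stood at 104, 101 and 98.9 FPKM in the PL libraries and 102, 112 and 104 in the FL libraries, with an interval of -0.23 to 0.11, beside Mycn, which was higher in FL (-1.65). Arid3a, a factor of fetal B lymphopoiesis, stood at 47.8, 47.3 and 41 FPKM in the PL libraries and 41.3, 44.9 and 44.6 in the FL libraries, with an interval of -0.15 to 0.26.

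Genes of both sides were also counted by their level in the 7 other groups of the series. Of the 2990 genes higher in PL by at least 2-fold, 1464 had a mean under 1 FPKM in FL and 1123 were under 1 FPKM in FL and in each of the 7 other groups. Of the 1237 genes higher in FL by at least 2-fold, 1185 had a mean of at least 1 FPKM in each of those 7 groups, and 223 had a mean under 1 FPKM in PL. The genes were chosen by their level in PL or FL, and FL and the 7 other groups are all HSPCs by label. Such counts are therefore partly set by the choice, and no share of all genes tested was counted beside them. They are descriptions of group means and were not tested.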

How the data were processed

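RNA from 6 HSPC libraries, 3 labelled E12.5 PL and 3 labelled E12.5 FL, was compared. Per the submitters' processing notes the tools were Trim Galore, FastQC, STAR 2.7 and HTSeq 0.6.1p1 with the GRCm38 build. The deposited values are FPKM made by the authors; no source used here names the program or annotation behind them. FPKM keep no counts, so depth is unknown beyond relative steps, and their sum differs between libraries, which shifts all differences.

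FPKM were transformed to log2(FPKM + 1), and genes with at least 1 FPKM in at least 3 of the 6 libraries were fitted with limma 3.58.1 (lmFit, eBayes with a trend, 4 residual degrees of freedom) in R 4.3.3, with Benjamini-Hochberg adjustment over 12583 genes. Python 3.11.15, numpy 2.4.6 and pandas 2.3.3 were used for tables and matplotlib 3.10.9 for figures. On simulated data for this comparison, run on 12583 genes, 34.3%, 92.5% and 95.5% of genes changed by 0.5, 1 and 2 on the log2 scale were called, with 27 unchanged genes called. The changed genes numbered 67, 67 and 66 and were drawn only from genes above a set mean level. In the data 73.8% of genes were called, so these rates do not describe low genes or a comparison with so many changes.

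The text names the 15 largest log2 differences in each direction among called genes whose higher group averaged 10 FPKM or more and whose libraries did not overlap (no clone names, predicted genes, pseudogenes, mitochondrial genes or date-like names), members of 55 lists (1011 of 1015 symbols in the table, 868 tested) and of 28 families, the 10 genes most uneven in PL and the 10 most abundant per group. The comparison and the lists were chosen with earlier results of these data known. Positions and promoters are from RefSeq (GRCm38.p6), with promoter windows matched for 10039 of the genes tested. Alternatives were another pseudocount, filters, scalings, a fit of all 27 libraries, a replicate block, library weights and leaving out each library. A few genes of the lists are not reported here by name.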

Additional observations from a re-analysis of the deposited data

How the results depend on the processing

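The counts of genes called, and of those called by at least 2-fold, stayed within 1.5 times their values under the alternatives tried, except that equal FPKM sums raised the genes at least 2-fold higher in FL to 2042. The 8-fold and 32-fold counts moved more: a pseudocount of 0.1 gave 1548 in PL and 152 in FL by 8-fold and 729 in PL by 32-fold, and by 8-fold in FL equal sums gave 89 and median-of-ratios scaling 55. Leaving out 1 library at a time gave 4801 to 5303 genes called higher in PL and 3595 to 4150 in FL, and by at least 2-fold 2953 to 3063 in PL and 1172 to 1366 in FL, with 21 to 71 in FL by 8-fold; where 1 group keeps 2 libraries, its spread is assumed to match the other's. With equal FPKM sums, 14 of the genes named had the opposite sign, most of them called under neither scaling. Those that changed sign and were called on at least 1 side were Ccna2 (-0.032), H2-K1 (-0.25) and Orc1 (-0.012), and, without PL 1, Csf2rb2 (its leave-one-out range was -0.28 to 0.16). Of 1540 list counts over all alternatives, 51 moved by over 1.5 times. Fitted with a replicate block, 5082 genes were called higher in PL and 3897 in FL. Deviations of same-numbered libraries correlated at 0.03, 0.03 and -0.13. With 3 libraries per group and no values for differently numbered libraries beside them, these cannot show whether the replicate numbers pair the libraries. The unknown depth limits what can be said of genes near 0 FPKM.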

Other observations

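A pair of class II antigen presentation genes, chosen after their values were seen, was higher in PL; other class II genes were not counted. H2-Aa, a class II chain, stood at 53.5, 18.2 and 15.9 FPKM in the PL libraries and 0.0843, 0.15 and 0 in the FL libraries (log2 difference 4.6 ± 0.39 (SE), limma adjusted p = 1.28e-05). Cd74, the invariant chain, stood at 119, 42.9 and 40.2 FPKM in the PL libraries and 2.56, 2.93 and 2.86 in the FL libraries (log2 difference 3.99 ± 0.36 (SE), limma adjusted p = 1.86e-05). PL 1 held the highest value of both, by more than 2-fold over PL 2 and PL 3. The groups did not overlap. In the 7 other groups the mean of H2-Aa ranged from 5.42 to 54.5 FPKM. Among the PL libraries the summed pan-leukocyte level was also highest in PL 1, at 872, 504 and 612 FPKM. In the FL libraries that sum was higher, at 3258, 3508 and 3443 FPKM. The part of the leukocyte level in the values of H2-Aa and Cd74 was not tested.

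Among the promoter windows, the RUNX motif TGTGGT was found in 15.3% of the 1288 windows of genes at least 2-fold higher in FL and in 9.05% of the 3015 windows of genes at least 2-fold higher in PL. The TEAD motif was found in 10.6% and 12.7%, and the GATA factor motif in 7.3% and 6.04%. Of the 12747 windows of all tested genes, 10.6% held the RUNX motif, 10.5% the TEAD motif and 6.02% the GATA factor motif. These shares were not tested.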
